A study of Mus musculus with 6 samples.

Results

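The proteins of the mitochondrial respiratory chain and of the ATP synthase were read through every probe whose gene symbol in the platform's probe table begins with Nduf, Sdh followed by a to d, Uqcr, Cox followed by 4 to 8, Cyc1 or Atp5. This gave 57 probes for 57 genes out of 10076 probes in the table, of which 8983 carried 1 gene symbol, for 8841 genes in all. By prefix, 23 belonged to complex I, 4 to complex II, 3 to complex III, 15 to complex IV and 12 to the ATP synthase. The rule takes in 4 assembly factors (Ndufaf2, Ndufaf3, Ndufaf7 and Sdhaf4), which help to build a complex and are not part of the finished enzyme. The other 53 encode subunits.

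The samples were thioglycollate-elicited macrophages, cells drawn into the peritoneal cavity by a sterile irritant, taken from female C57BL/6 mice of 6 weeks. The groups were TSA, No treatment, TSA + LPS, LPS, TSA + GW3965 + LPS and GW3965 + LPS, with 1 array each, so no group has a replicate. TSA (trichostatin A) inhibits histone deacetylases, LPS is the bacterial lipopolysaccharide sensed by Toll-like receptor 4, and GW3965 activates the liver X receptors. Doses, times and whether the cells of the arrays came from different mice are not given in the sources used here. With no replicates, the p-values do not measure spread between repeat arrays. They rest on how far the arrays depart from adding up the separate treatment effects, mixed with noise that may be technical. They also rest on a prior variance shared over all probes. Signals are the submitters' intensities on a linear scale, with a median near 1 unit on every array (0.981 to 0.987).

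Complex I takes electrons from NADH and complex II takes them from succinate in the tricarboxylic acid cycle. Both pass them through ubiquinone to complex III, which hands them by cytochrome c to complex IV, where oxygen is reduced. Complexes I, III and IV pump protons across the inner membrane, and the ATP synthase lets them flow back to make ATP. A macrophage stimulated with LPS is known to lean on glycolysis and to use complex II and complex I in part as sources of signals and of reactive oxygen. The probes measured here are all for nuclear genes, and the subunits encoded in mitochondrial DNA were not analysed here.

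Of the 57 probes, 54 stood at or above an array's median on at least 1 array and entered the fit, and 53 of these did so on all 6 arrays. The exception was Ndufaf7. The other 3 did not enter the fit and read 0.289 to 0.591 units on every array. They were Ndufab1, the mitochondrial acyl carrier protein that also sits in complex I, and the tissue-restricted isoforms Cox4i2 and Cox8b. Each has 1 probe, and whether it reports its gene was not tested. Effects of TSA, LPS and GW3965 were estimated with 1 additive model over all 6 arrays (limma), with 2 residual degrees of freedom. A gene is said to have risen or fallen where its p, adjusted by Benjamini-Hochberg over all 5132 probes in the fit, was under 0.05. Of 6 macrophage markers on the array, Lyz2 (lysozyme) read 729 to 1050 units with TSA and 740 to 1027 without it, and 1 of the 6, Cd14, fell with TSA. Summed over the 6, signal was 759 to 1234 units with TSA and 1065 to 1130 without it, most of it from Lyz2. The neutrophil marker S100a8 rose with TSA, with a log2 difference of 0.60, while Mpo, Elane and Cxcr2 stood under the array median on all 6 arrays. Summed over the 4 neutrophil markers on the array, signal was 32.6 to 79.5 units with TSA and 22.6 to 49.9 without it. Most of it came from S100a8, and its part in the results was not tested. Of the eosinophil, mast cell, B cell, T cell and mesothelial markers 0 were called for TSA. In these bulk samples a change in the mix of cells and a change of RNA per cell cannot be told apart.

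With TSA, mRNA for several subunits of complexes I and IV, for Uqcrb of complex III and for Atp5md and Atp5j of the ATP synthase was higher. The subunits that passed the test were 1.46-fold to 1.90-fold higher. For the ATP synthase as a whole, 2 of 12 rose and 1 fell, near the shares of all probes. The assembly factor Sdhaf4 was 2.004-fold higher. Of the 54 probes tested 16 rose (29.6%) and 1 fell, where 11.0% of all probes tested rose and 7.50% fell. The median log2 difference with TSA was 0.36 over these probes and 0.02 over all probes tested. It was 0.22 after quantile normalization and 0.17 after cyclic loess, with all probes at -0.02 and -0.01. The single gene that fell was Atp5b, the catalytic beta subunit of the ATP synthase. The 16 that rose had log2 differences of 0.55 to 1.003 with standard errors of 0.18 to 0.21 and limma adjusted p from 0.00172 to 0.0485, and each was higher in 3 of 3 pairs of arrays. Of the 37 that did not pass, 33 had a difference above 0 and 4 below it, over a range of -0.52 to 0.59. Over all 54, 49 were above 0, where 2634 of the 5132 probes tested were.

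The direction held in most pairs taken alone. With TSA, 34 of the 54 probes (63.0%) were higher in 3 of 3 pairs and 4 were lower in 3 of 3, against 27.4% and 23.0% of all probes tested. For 21 probes (38.9%) the 3 arrays with TSA all stood above the 3 without it, against 15.1% of all probes, and for 3 they all stood below, against 10.3%. The number that rose depended on the setting. After cyclic loess scaling 10 rose and 2 fell, against 515 and 470 of all probes. With low signals raised to the array median 5 rose and 0 fell, against 244 and 100. With no intensity trend in the prior variance 10 rose, against 489 of all probes. Without the pair of arrays that had no LPS 9 rose, against 381. Without the pair that had GW3965 + LPS 7 rose, against 342. The main fit called 562 of all probes risen and 385 fallen. Uqcrb, Ndufv2, Ndufaf3 and Sdhaf4 passed in all 12 alternatives, Ndufa6, Ndufb5 and Atp5b in 11, Ndufa4 and Atp5md in 10, and the other 8 in 5 to 9, with Atp5j the lowest. Bright probes as a whole read higher with TSA, so the background was also taken over 758 probes at or above 27.7 units, the lower quartile of mean levels of the 54 probes (a choice made after seeing the data). There 13.5% of the 718 other probes rose and their median was 0.14, and 12 of 40 respiratory chain and ATP synthase probes rose with a median of 0.39. The cut is a lower bound only, and the sets were not matched in level above it.

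**Figure D1:**
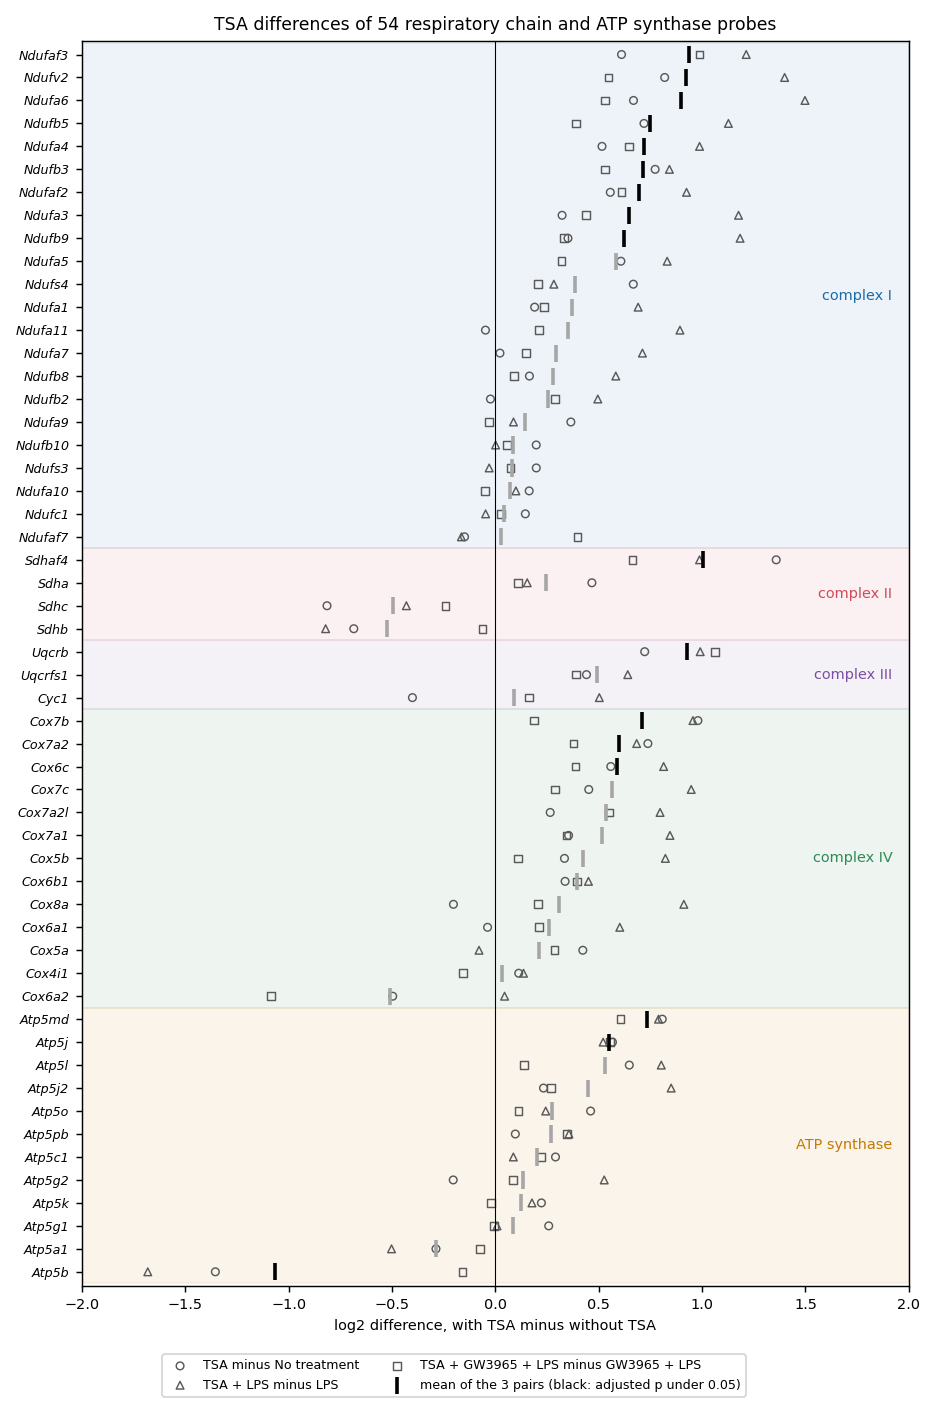
Log2 difference with TSA minus without TSA (horizontal axis) for the 54 probes tested, grouped by complex. Open symbols are the 3 pairs of arrays and the bar is their mean, black where the limma adjusted p was under 0.05; 16 black bars lie above 0 and 1, Atp5b, below it.

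The promoters of 4 genes are shown because Sdhaf4, Ndufa6 and Ndufv2 were among the 5 genes with the largest rises with TSA and Atp5b was the gene that fell. Ndufaf3 and Uqcrb, also among the 5, are not shown, and no RefSeq promoter was found for Uqcrb. Each runs from 250 bases before the annotated start to 50 bases after it on the gene's own strand, from RefSeq on GRCm38.p6. They lie at chr1:24005591-24005890 on the minus strand (Sdhaf4), chr15:82354242-82354541 on the minus strand (Ndufa6), chr17:66101510-66101809 on the minus strand (Ndufv2) and chr10:128083057-128083356 on the plus strand (Atp5b). Capitals mark GCGCANGCG, the letters of a nuclear respiratory factor 1 (NRF1) motif, on either strand.
Sdhaf4: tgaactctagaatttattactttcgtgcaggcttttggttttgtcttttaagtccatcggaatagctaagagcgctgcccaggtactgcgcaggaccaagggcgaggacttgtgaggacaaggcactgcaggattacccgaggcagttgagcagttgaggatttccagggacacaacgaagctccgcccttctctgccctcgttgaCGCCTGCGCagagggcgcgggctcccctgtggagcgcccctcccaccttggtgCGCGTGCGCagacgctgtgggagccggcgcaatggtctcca
Ndufa6: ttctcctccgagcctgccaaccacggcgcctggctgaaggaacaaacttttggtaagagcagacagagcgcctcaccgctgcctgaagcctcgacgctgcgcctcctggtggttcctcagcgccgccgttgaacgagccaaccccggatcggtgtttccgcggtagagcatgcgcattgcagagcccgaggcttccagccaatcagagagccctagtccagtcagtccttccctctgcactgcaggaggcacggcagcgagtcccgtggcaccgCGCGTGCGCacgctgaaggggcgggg
Ndufv2: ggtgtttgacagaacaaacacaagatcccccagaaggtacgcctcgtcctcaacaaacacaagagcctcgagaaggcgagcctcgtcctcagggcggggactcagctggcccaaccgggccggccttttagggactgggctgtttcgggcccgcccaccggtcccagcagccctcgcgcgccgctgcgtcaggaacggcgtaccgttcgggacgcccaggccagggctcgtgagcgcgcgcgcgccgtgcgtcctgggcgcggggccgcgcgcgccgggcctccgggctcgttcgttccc
Atp5b: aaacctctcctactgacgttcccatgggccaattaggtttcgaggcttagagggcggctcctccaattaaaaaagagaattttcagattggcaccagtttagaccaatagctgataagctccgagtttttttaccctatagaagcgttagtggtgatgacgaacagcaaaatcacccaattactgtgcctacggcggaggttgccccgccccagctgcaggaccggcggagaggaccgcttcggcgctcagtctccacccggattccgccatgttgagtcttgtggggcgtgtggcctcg

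NRF1, ETS factors such as GABP and YY1 are transcription factors long tied to nuclear genes of the respiratory chain. RefSeq promoters were found for 48 of the 57 genes, 52 promoters in all, and were searched on both strands for GCGCANGCG (NRF1), CCGGAAG (ETS) and AAGATGGCG (YY1). GCGCANGCG was in 13 of the 52 (25%) and in 6.25% of 32851 promoters in the table. CCGGAAG was in 9 (17.3%), against 8.86% of all promoters, and AAGATGGCG in 5 (9.62%), against 1.40%. At least 1 of the 3 was in 4 of 14 promoters of genes that rose with TSA and in 19 of 38 promoters of the other genes. GCGCANGCG alone was in 2 of the 14 (those of Sdhaf4 and Ndufa6) and in 11 of the 38. No match of 1 motif overlapped a match of another in these 52 promoters. In Sdhaf4 the matches begin 44 bases before the start and just after it, Ndufa6 has 1 match after the start, and the windows of Ndufv2 and Atp5b hold none of the 3. The window of Ndufaf3, not shown, also holds none.

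Complex I held 9 of the 16 genes that rose. Of its 22 probes tested 9 rose and 0 fell, where 11.0% of all probes rose and 7.50% fell. All 22 had a difference above 0 with TSA, as did 2634 of the 5132 probes tested, and their median was 0.38. Values below are in units, with TSA and then without it, and within each in the order no LPS, LPS, GW3965 + LPS. Ndufv2, a flavoprotein-side core subunit that carries an iron-sulfur cluster, read 128, 168 and 130 with TSA, against 72.3, 63.8 and 88.7 without it. The log2 rise was 0.92 (SE 0.20, adjusted p = 0.00475). Ndufa6, an accessory subunit that belongs to the LYR family and binds the acyl carrier protein, read 214, 258 and 195 with TSA, against 135, 91.3 and 135 without it. It rose by 0.90 (SE 0.21, adjusted p = 0.00628). In both genes the lowest array with TSA stood above the highest without it, and the gap was widest in the pair with LPS.

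The assembly factors Ndufaf3 and Ndufaf2 moved the same way. Ndufaf3, which acts early in building the arm of complex I that joins the ubiquinone site, read 14.2, 23.2 and 23.2 with TSA and 9.29, 10.0 and 11.7 without it, a rise of 0.94 (SE 0.21, adjusted p = 0.00546). Ndufaf2, a late-acting assembly factor, read 7.37, 6.96 and 7.51 with TSA, against 5.01, 3.67 and 4.92 without it. It rose by 0.70. Ndufaf7, a methyltransferase that modifies a core subunit during assembly, did not pass, at 0.03 with an adjusted p of 0.96.

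The other complex I genes that rose were accessory subunits. Ndufb5 read 95.0, 129 and 106 with TSA, against 57.7, 58.9 and 80.7 without it, a rise of 0.75. Ndufa4, first counted in complex I and since found with complex IV, read 169, 281 and 255 with TSA, against 118, 141 and 163 without it, and rose by 0.72. Ndufb3 rose by 0.72, Ndufa3 by 0.65 and Ndufb9 by 0.62. The arrays with and without TSA did not overlap in Ndufb5, Ndufa4, Ndufa3 and Ndufb9, and did in Ndufb3, where the TSA array (11.8) read under the GW3965 + LPS array (12.1). Among the 13 that did not pass, differences ran from 0.03 to 0.59, with the core subunit Ndufs3 at 0.08 and the accessory subunits Ndufb10 and Ndufa10 at 0.09 and 0.07.

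Complex II is encoded wholly in the nucleus. Of the 3 subunits tested 0 rose and 0 fell by limma, with 2 lower at an unadjusted p under 0.05, as were 721 of the 5132 probes tested. Sdhb, the iron-sulfur subunit, read 30.5, 15.3 and 25.3 with TSA, against 49.1, 27.1 and 26.4 without it. Its difference was -0.52 (SE 0.21, adjusted p = 0.094), and it was lower in 3 of 3 pairs, although in the pair with GW3965 + LPS by only 1.04-fold. Sdhc, which anchors the enzyme in the membrane, read 10.4, 12.3 and 12.1 with TSA, against 18.3, 16.6 and 14.3 without it, so that all 3 arrays with TSA stood below all 3 without. Its difference was -0.50 with an adjusted p of 0.11. Sdha, the flavoprotein that oxidises succinate, read 70.6, 48.6 and 44.3 with TSA, against 51.1, 43.7 and 41.1 without it, at 0.24 with an adjusted p of 0.43. The assembly factor Sdhaf4, which helps to protect and mature the flavinylated Sdha, had the highest rise of the whole set. It read 24.4, 16.98 and 17.97 with TSA, against 9.53, 8.57 and 11.3 without it, and rose by 1.003 (SE 0.21, adjusted p = 0.00365).

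In complex III, Uqcrb rose and the catalytic subunits did not pass. Uqcrb, a small subunit near the ubiquinone site, read 314, 415 and 407 with TSA, against 190, 209 and 195 without it. The 3 arrays without TSA lay close together and far below all those with it. It rose by 0.93 (SE 0.18, adjusted p = 0.00172), the lowest adjusted p among the 54 probes for TSA. Uqcrfs1, the Rieske iron-sulfur protein, read 35.4, 47.8 and 42.6 with TSA, against 26.1, 30.7 and 32.5 without it. Its difference was 0.49 with an adjusted p of 0.093. Cyc1, the cytochrome that passes electrons to cytochrome c, was lower with TSA alone (16.6, against 21.9 with No treatment) and higher with TSA + LPS (28.7, against 20.3 with LPS). Its mean was 0.09 with an adjusted p of 0.83.

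In complex IV, 3 of 13 genes rose and 0 fell, where 11.0% of all probes rose and 7.50% fell. A difference above 0 was seen for 12 of the 13 and for 2634 of the 5132 probes tested. All nuclear subunits of this enzyme surround a catalytic core made from mitochondrial DNA. Cox7b, needed for assembly, read 350, 438 and 383 with TSA, against 178, 226 and 336 without it, and rose by 0.71 (SE 0.20, adjusted p = 0.0171). Its difference was 0.98 in the pair with no LPS and 0.19 in the pair with GW3965 + LPS. Cox7a2, the isoform of subunit VIIa used in most tissues, read 231.7, 299 and 301 with TSA, against 139, 186 and 231.9 without it, and rose by 0.60. Its TSA array and its GW3965 + LPS array read almost the same. Cox6c rose by 0.59, and it read 224, 312 and 279 with TSA, against 152, 178 and 213 without it.

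Isoforms of 1 subunit could be set beside each other by their differences only, since levels of different probes are not comparable. For subunit VIIa, Cox7a1, the heart and muscle isoform, read 1.18 to 2.29 units over the 6 arrays and did not pass (0.51, adjusted p = 0.13). Cox7a2l, which joins complex III to complex IV in supercomplexes, read 51.0, 63.7 and 66.0 with TSA, against 42.4, 36.7 and 45.1 without it, at 0.54 with an adjusted p of 0.069. Its arrays with TSA all stood above those without. For subunit VIa, Cox6a1 stood at 0.26 (adjusted p = 0.36), and its heart and muscle counterpart Cox6a2 at -0.51 (adjusted p = 0.18). Cox6a2 read 1.12 to 1.30 with TSA and 1.26 to 2.37 without it, and its 2.12-fold lower reading in the pair with GW3965 + LPS was the only 2-fold decrease with TSA in complex IV. Cox4i1, the common isoform of subunit IV, stood at 0.03 (adjusted p = 0.93), with 219, 197 and 219.6 with TSA, against 202, 179 and 245 without it. Cox8a stood at 0.31 (adjusted p = 0.37), and its 0.91 in the pair with LPS faced -0.20 in the pair with no LPS.

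**Figure D2:**
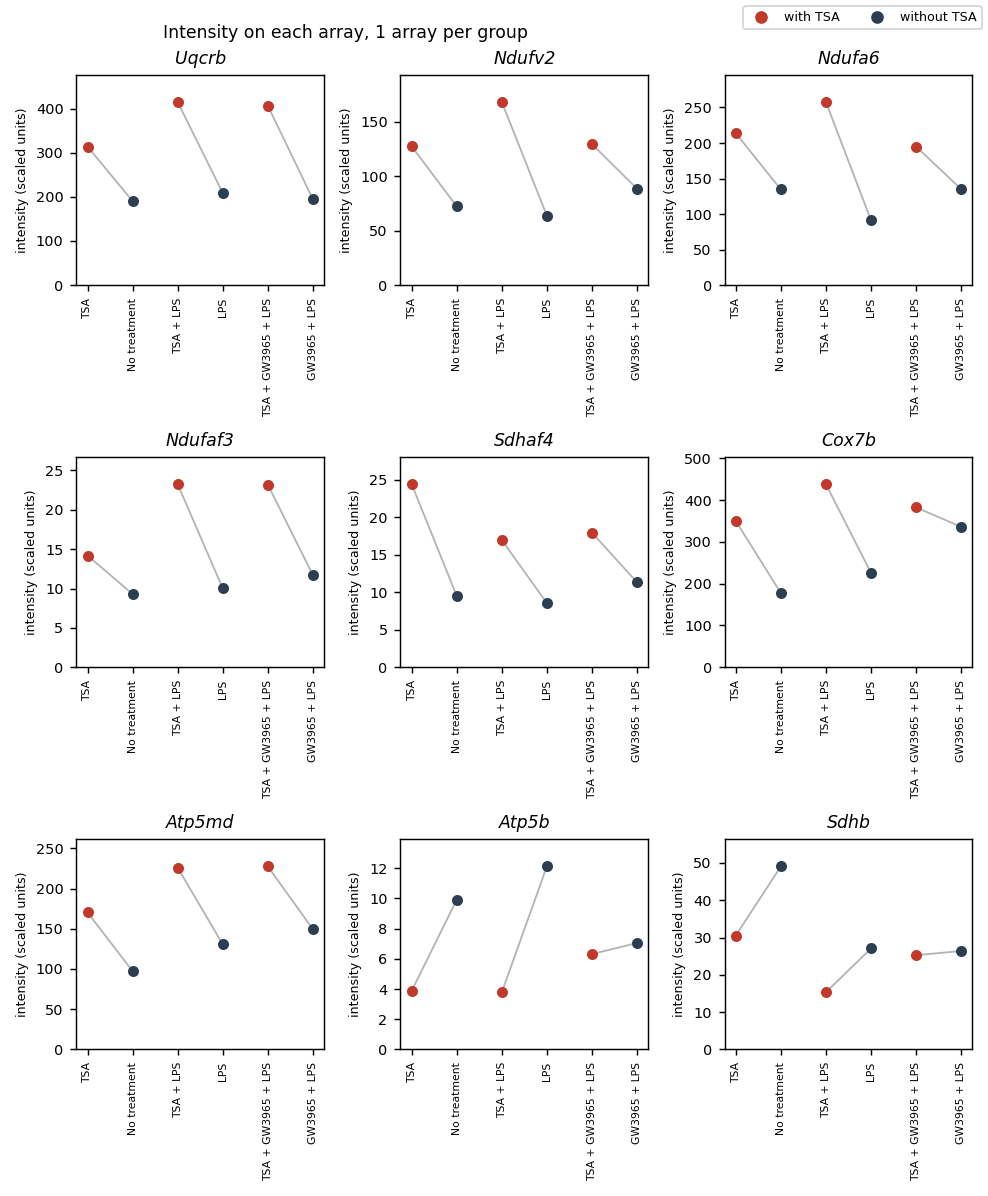
Intensity in scaled units (vertical axis, from 0) on each of the 6 arrays (horizontal axis) for 9 genes; grey lines join the arrays of a pair with TSA (red) and without it (dark). The first 7 genes read higher with TSA in every pair, and Atp5b and Sdhb read lower, least in the pair with GW3965 + LPS.

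Of 12 ATP synthase subunits 2 rose and 1 fell with TSA (16.7% risen), counts near the 11.0% and 7.50% of all probes that rose and fell. Atp5md (DAPIT), a small membrane subunit that helps to hold synthase dimers together, read 170, 226 and 228 with TSA, against 97.3, 131 and 149 without it, and rose by 0.73 (SE 0.18, adjusted p = 0.0101). Atp5j, coupling factor 6 of the stalk that holds the catalytic head still, read 111, 129 and 134 with TSA, against 75.0, 90.1 and 91.1 without it. It rose by 0.55 (SE 0.19, adjusted p = 0.0485), and its differences in the 3 pairs had an SD of only 0.02. Atp5l and Atp5j2, also of the membrane part, stood at 0.53 and 0.45 and did not pass, with adjusted p of 0.063 and 0.11.

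The subunits of the catalytic head were not higher as a group. Atp5b, the beta subunit that holds the catalytic sites, read 3.88, 3.78 and 6.31 with TSA, against 9.91, 12.1 and 7.05 without it. The groups did not overlap, but the last pair differed by only 1.12-fold, where the pair with no LPS differed by 2.56-fold and the pair with LPS by 3.21-fold. Atp5b fell by 1.06 (SE 0.26, adjusted p = 0.00792), and with low signals raised to the array median it did not pass (limma adjusted p = 0.0765). Its own signals lay above the median on all 6 arrays, and its difference in that setting was unchanged at -1.06. The alpha subunit Atp5a1 read 57.3, 48.6 and 60.1 with TSA, against 70.0, 68.9 and 63.2 without it, all below, at -0.29 with an adjusted p of 0.34. The gamma subunit Atp5c1, the rotating shaft, stood at 0.20 with an adjusted p of 0.53. It read 36.2 to 36.5 with TSA, all above the 29.8 to 34.1 without it. Atp5g1 and Atp5g2 encode the same mature ring subunit behind different import signals, and stood at 0.09 and 0.14 with adjusted p of 0.81 and 0.71.

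The 3 TSA pairs share no array, so their differences can be set beside each other. The median over the 54 probes was 0.33 for TSA against No treatment, 0.62 for TSA + LPS against LPS and 0.23 for TSA + GW3965 + LPS against GW3965 + LPS, while medians over all probes tested were 0.04, 0.00 and 0.02. Across the 54 probes the 3 pairs correlated with Pearson's r of 0.62 to 0.71, and across all 5132 probes with 0.55 to 0.58. The points are genes read on the same arrays, so these values describe the arrays and carry no p. By size, 1 of 54 measured probes was 2-fold or more higher with TSA alone (Sdhaf4), where 7.03% of measured probes were, and 1 was lower (Atp5b), where 4.67% were. With LPS 6 of 53 were higher, all of complex I, where 7.58% were: Ndufa6, Ndufv2, Ndufaf3, Ndufb9, Ndufa3 and Ndufb5. There 1 was lower, again Atp5b, where 9.50% were. With GW3965 + LPS 1 was higher (Uqcrb), where 4.85% were, and 1 lower (Cox6a2), where 1.12% were.

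Whether the TSA difference depended on LPS or on GW3965 was tested with an interaction term, which leaves 1 residual degree of freedom. For TSA by LPS, limma called 0 of 54 probes, with 0 at an unadjusted p under 0.05, where 0.0390% of all probes tested were called upward and 0.195% downward. For TSA by GW3965 it called 0 of 54, with 1 at an unadjusted p under 0.05, where 0.0390% were called upward and 0.0195% downward. That probe was Atp5b, whose term was 1.36 (SE 0.57, adjusted p = 0.999). At an unadjusted p under 0.05, 104 of the 5132 probes tested were higher and 154 lower for TSA by LPS. For TSA by GW3965, 120 were higher and 23 lower. The median terms over the 54 probes were 0.11 for LPS and -0.20 for GW3965. The TSA by LPS term sets the pair with no LPS against the mean of the pair with LPS and the pair with GW3965 + LPS. The TSA by GW3965 term sets the pair with GW3965 + LPS against the mean of the other pairs. Neither sets the pair with LPS against the others, so whether its larger differences exceed theirs was not tested.

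**Figure D3:**
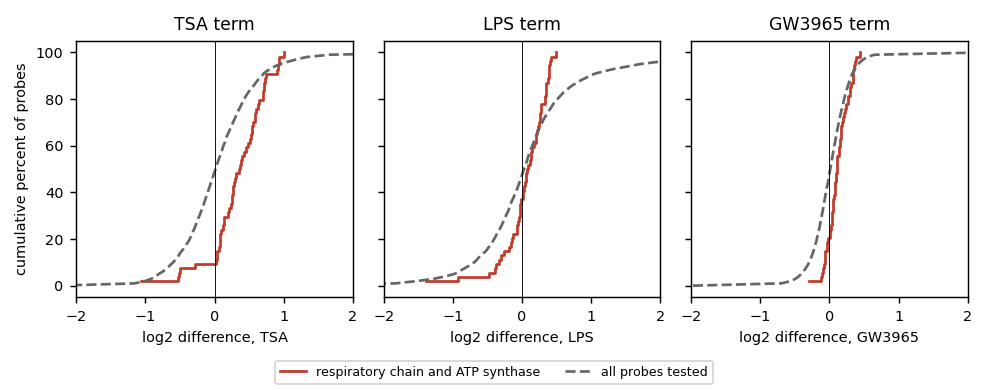
Cumulative percent of probes (vertical axis) by log2 difference (horizontal axis) for the TSA, LPS and GW3965 terms, for the 54 respiratory chain and ATP synthase probes (solid red) and all 5132 probes tested (dashed grey). The axis is cut at -2 and 2. For TSA the solid line lies to the right of the dashed line except near its lowest and highest values, with medians of 0.36 and 0.02, and the lines have medians of 0.08 and 0.03 for LPS.

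Few of these mRNAs passed the test with LPS. Of 54 probes 0 rose and 2 fell, where 12.3% of all probes tested rose and 7.13% fell. At an unadjusted p under 0.05, 1 was higher and 2 were lower, where 912 and 648 of the 5132 probes tested were. Sdhb of complex II was among the 2. It read 27.1 with LPS, against 49.1 with No treatment, and 15.3 with TSA + LPS, against 30.5 with TSA. It fell by 0.93 (SE 0.26, adjusted p = 0.0158) and was lower in 2 of 2 pairs. Ndufaf7 read 0.747 with LPS, against 1.95 with No treatment, and 0.667 with TSA + LPS, against 1.75 with TSA. It fell by 1.39 (SE 0.31, adjusted p = 0.00275) from signals near the array median, and its arrays with LPS stood under that median apart from TSA + GW3965 + LPS.

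The median log2 difference with LPS was 0.08, against 0.03 over all probes. It turned to -0.20 after quantile normalization, which also moved all probes to -0.11. More of the 54 fell in that setting, a count not set beside all probes here. By pair the median was -0.06 for LPS against No treatment and 0.25 for TSA + LPS against TSA. In 2 of 2 pairs 18 of the 54 were higher and 13 lower, where 34.3% and 31.6% of all probes were. The 3 complex III subunits stood between 0.27 and 0.34 and did not pass. Sdha stood at -0.38 (adjusted p = 0.32) and Ndufb10 at -0.48 (adjusted p = 0.18). The highest value was that of Ndufa4 at 0.49 (adjusted p = 0.15). In the LPS pairs 0 probes were 2-fold higher, where 14.0% of measured probes were without TSA and 9.19% with it. Only Ndufaf7 was 2-fold lower, in both pairs, where 6.06% and 6.42% were.

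**Figure D4:**
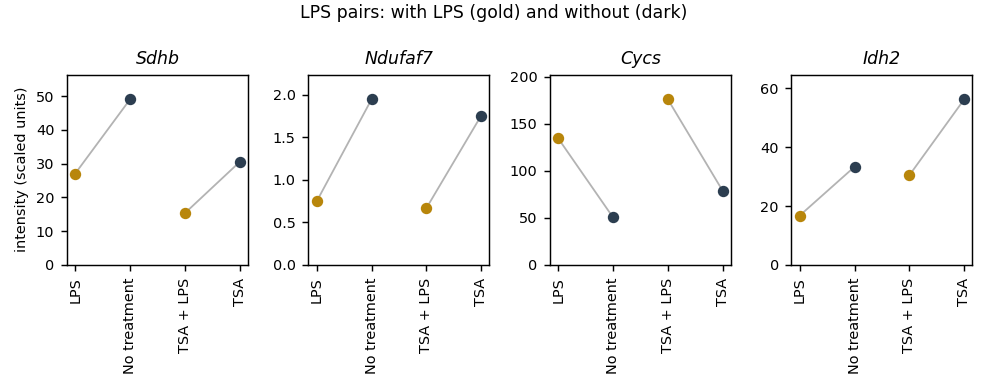
Intensity in scaled units (vertical axis, from 0) on the arrays of the 2 LPS pairs (horizontal axis) for Sdhb, Ndufaf7, cytochrome c (Cycs) and the isocitrate dehydrogenase Idh2. Arrays with LPS (gold) read lower than their partners for Sdhb, Ndufaf7 and Idh2 and higher for Cycs.

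GW3965, given only with LPS, moved none of these probes past the test. Limma called 0 of 54, with 0 at an unadjusted p under 0.05, where 0.0585% of all probes rose and 0.0195% fell. At that unadjusted threshold 64 of the 5132 probes tested were higher and 78 lower. The median difference was 0.10, against 0.01 over all probes, with a range of -0.29 for Cyc1 to 0.44 for Ndufb3. In 2 of 2 pairs 20 were higher and 4 lower, where 21.6% and 19.3% of all probes were. The medians of the pairs were 0.29 for GW3965 + LPS against LPS and -0.01 for TSA + GW3965 + LPS against TSA + LPS. Atp5b went opposite ways, at -0.78 in the pair without TSA and 0.74 in the pair with it. In the pair without TSA 0 probes were 2-fold higher or lower, where 0.493% and 1.27% of measured probes were, and in the pair with TSA 0 were, where 1.76% and 0.571% were.

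Genes that feed the chain or build it were counted beside the subunits, and differences between lists were not tested. Over all probes 11.0% rose and 7.50% fell with TSA. Of 15 genes of the tricarboxylic acid cycle 2 rose and 0 fell with TSA, with a median of 0.15. The mitochondrial isocitrate dehydrogenase Idh2 read 56.3, 30.5 and 33.4 with TSA, against 33.4, 16.8 and 19.0 without it, and rose by 0.81 (SE 0.20, adjusted p = 0.00919). The succinate-CoA ligase subunit Sucla2 rose by 0.64. Of 12 carriers and electron entry genes 1 rose and 1 fell: Atpif1, the inhibitor of ATP hydrolysis by the synthase, rose by 0.81, and Gpd2, which feeds electrons from glycerol phosphate to ubiquinone, fell by 0.88. Of 44 mitochondrial ribosomal proteins 6 rose and 3 fell, counts near the shares of all probes, and Mrpl13 had the highest rise at 1.17. Of 6 assembly factors outside the rule and 7 factors of mitochondrial biogenesis 0 rose and 0 fell by limma.

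The neutrophil marker S100a8 also rose with LPS, by 1.20, and its part was not tested. With LPS, cytochrome c rose while its reductase and oxidase did not pass. Cycs read 135 with LPS, against 50.5 with No treatment, and 176 with TSA + LPS, against 78.8 with TSA. It rose by 1.29 (SE 0.24, adjusted p = 0.000396). Gpd2 rose by 1.52, and the partner subunits of the GABP factor, Gabpa and Gabpb1, rose by 0.95 and 1.23. In the tricarboxylic acid cycle 3 of 15 genes fell with LPS and 0 rose, where 7.13% of all probes fell and 12.3% rose. Idh2 fell by 0.94, Idh3g, a subunit of the NAD-dependent isocitrate dehydrogenase, fell by 0.76, and the succinate-CoA ligase subunit Suclg2 fell by 1.06. Surf1, an assembly factor of complex IV, fell by 1.11. Idh2 was thus lower with LPS and higher with TSA, as the array values show.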

How the data were processed

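Single-colour arrays with biotin-labelled cRNA were read for 6 samples, per the labels. The deposited values are intensity on a linear scale, scaled between arrays by the submitters, inferred from the equal medians of the arrays, and the scaling method, scanner settings and background correction are not given in the sources used here. Between 19 and 28 values per array were at or below 0. Each array was floored at its 25th percentile (0.198 to 0.245 units) and log2-transformed. Probes with 1 symbol and at or above the median of at least 1 array were fitted with limma 3.58.1 in R 4.3.3, with terms for TSA, LPS and GW3965, an intensity trend and 17.1 prior degrees of freedom. Gene symbols come from GEO's platform annotation, where 1092 probes have none and 1 has several, and all 57 gene IDs were found in RefSeq with an unchanged symbol. Differences of 2-fold in a pair of arrays were counted where the brighter array was at or above its median. With 1 array per group, the number of arrays sets the precision. Alternatives covered scaling, floor, level filter, probes of a gene, prior variance, size threshold and leaving out pairs of arrays. Members, lists and tests were chosen with earlier results of these data known. Genes named are those that limma called, those 2-fold apart in a measured pair, the extremes of each complex and isoforms of 1 subunit; any other member named was picked with its values in view. Plots used matplotlib 3.10.9 under Python 3.11.15.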

Additional observations from a re-analysis of the deposited data

How the results depend on the processing

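Of the 17 genes called for TSA, 17 kept their call with the floor at the 10th percentile, with the mean level filter, with 1 probe a gene and with robust empirical Bayes, 16 with no level filter, 15 after quantile normalization, 11 after cyclic loess, 11 with no intensity trend, 5 with low signals raised to the array median and 8 to 14 when a pair of arrays was left out, and 0 reversed. Uqcrb, Ndufv2, Ndufaf3 and Sdhaf4 passed in all 12 alternatives. Cyclic loess gave 10 risen and 2 fallen with TSA, where all probes gave 515 and 470. The floor at the median gave 5 and 0, and no intensity trend gave 10 risen, where all probes gave 489. With the floor at the median the calls over all probes also fell in number, to 244 risen and 100 fallen, from 562 and 385 in the main fit. Leaving out a pair of arrays gave 7 to 13 risen and 1 to 2 fallen with TSA, with medians of 0.27 to 0.45 (0.22 after quantile normalization and 0.17 after cyclic loess). Without the GW3965 + LPS pair 7 rose (342 of all probes), and without the pair that had no LPS 9 rose (381). Without the LPS pair 13 rose (661 of all probes, against 562 in the main fit) and 2 fell (293 of all probes). Quantile normalization gave more fallen with LPS, a count not set beside all probes here, and a median of -0.20. The 2 genes called for LPS passed in all 10 alternatives that could be fitted for LPS. Summed over pairs, 8 differences of 2-fold were higher with TSA (4.97%, against 6.50% of all measured differences) and 3 lower (1.86%, against 5.13%). With LPS 0 were higher (0.00%, against 11.6%) and 2 lower (1.85%, against 6.24%). Cyclic loess gave 4 higher with TSA and 4 lower with LPS. Quantile normalization gave 5 lower with LPS, and the floor at the median gave 0 lower with LPS. Shares of all measured differences were not counted in these settings, so whether these changes are particular to this gene set was not tested. At 1.5-fold there were 47 higher (29.2%, against 17.5% of all measured differences) and 6 lower (3.73%, against 14.2%) with TSA, 9 higher (8.33%, against 21.2%) and 5 lower (4.63%, against 15.6%) with LPS, and 8 higher (7.48%, against 6.96%) and 1 lower (0.935%, against 6.50%) with GW3965. The interaction and GW3965 terms called 0 members under every alternative run. Causes of these shifts were not tested. The TSA term is the mean of the 3 pairs, so the fit already compares within pairs, and with 1 array per group there are no replicate numbers to pair by. Signals of Ndufaf7, Cox6a2 and Cox7a1 lay near the array median, which limits their folds.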
